A study of Mus musculus with 10 samples.

Results

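The major urinary protein (Mup) genes were examined in the livers of tumour-bearing mice: 10 named genes, Mup1, Mup2, Mup3, Mup7, Mup11, Mup12, Mup15, Mup19, Mup20 and Mup21, taken by symbol from a table of 24972 genes. RNA from 10 liver libraries had been sequenced at transcript 3′ ends. The Tcell low group held 4 libraries, from mice bearing the pancreatic ductal adenocarcinoma line 6419c1, and the Tcell high group held 6, from mice bearing the line 6555c3. Both lines derive from KPC mice, a genetically engineered model of pancreatic cancer, and the genotype is given as WT for every library. Each group rests on 1 cell line, so that the T cell class of the tumour and the identity of the line cannot be told apart. The labels give no age, sex or strain, and do not say whether each library is its own mouse, so the p-values speak of the variation among these libraries, some of which may be technical.

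Major urinary proteins are small lipocalins, barrel-shaped proteins that carry hydrophobic ligands. Mouse hepatocytes secrete them in bulk into the blood, from which they pass into the urine and there bind and slowly release volatile pheromones. In mouse liver their transcription is driven by pulsed growth hormone acting through the receptor, JAK2 and STAT5B, and it is higher in males than in females. Mup20 encodes darcin, a male urinary pheromone, while Mup3 belongs with Mup20 and Mup21 to the outlying, more diverged copies of the family.

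The 10 genes lie on the minus strand of chromosome 4 (mm10), within a stretch of 2.19 Mb that holds all 21 Mup genes of the table and 0 other protein-coding genes. By position the first is Mup7 (chr4:60066469-60070475), followed by Mup2 (chr4:60135932-60154289), Mup1 (chr4:60498012-60501960), Mup11 (chr4:60658466-60662411), Mup12 (chr4:60737383-60741326), Mup15 (chr4:61435790-61439743) and Mup19 (chr4:61778324-61782269). Mup20 (chr4:62050234-62054158), Mup3 (chr4:62083476-62087342) and Mup21 (chr4:62147932-62150863) stand together at the far end.

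Copies were set apart by sequence, because 3′ end reads from identical stretches cannot be given to 1 gene. Between the coding sequences of the 7 copies Mup1, Mup2, Mup7, Mup11, Mup12, Mup15 and Mup19, identity ran from 98.4% to 99.6%, with a median of 99.3% over 21 pairs. Identity to these 7 was 82.2% to 83.4% for Mup3, 90.1% to 91.4% for Mup20 and 83.7% to 84.8% for Mup21. The last 60 coding bases show the difference, with capitals marking each base that differs from Mup2. Counted back from the annotated transcript end, they begin at base 333 in Mup2 and Mup20, 459 in Mup3 and 80 in Mup21. In Mup3 almost all of these bases thus lie outside the last 400 bases of the transcript. The 60 bases are shown for Mup2, whose stretch is identical in the other 6 near-identical copies, and for the distinct copies:
Mup2: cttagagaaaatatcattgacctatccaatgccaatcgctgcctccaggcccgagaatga
Mup3: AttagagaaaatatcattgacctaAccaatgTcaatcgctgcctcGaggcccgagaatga
Mup20: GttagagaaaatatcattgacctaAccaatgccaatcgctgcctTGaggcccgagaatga
Mup21: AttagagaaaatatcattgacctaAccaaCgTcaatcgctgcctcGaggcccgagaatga
Mup3 and Mup20 each differ from Mup2 at 4 of these bases and Mup21 differs at 5. Transcript ends were compared by their 50-base words, taken from the last 400 bases: 100% of these occur in another gene for Mup2, Mup15 and Mup19, 90.2% for Mup7, 87.2% for Mup12, 70.4% for Mup11 and 59.1% for Mup1. The share was 28.5% for Mup20, most of it with a Mup pseudogene, 17.1% for Mup21 and 9.36% for Mup3. Values of the 7 near-identical copies are therefore uncertain as values of single genes, since the labels and processing notes do not say how reads that match several copies were counted.

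Upstream, Mup3 and Mup21 carry short motifs that Mup2 also has. No promoter was matched for Mup20, and identity of the upstream sequences was not computed. The 250 bases before the RefSeq start site (GRCm38.p6, minus strand) are given for Mup2 (chr4:60139857-60140106), Mup3 (chr4:62087318-62087567) and Mup21 (chr4:62150842-62151091), copies with near-identical and with distinct coding ends. Capitals mark the TATA box TATATAA and the motif ATCAAT, a core bound by cut homeodomain factors, as matched on either strand:
Mup2: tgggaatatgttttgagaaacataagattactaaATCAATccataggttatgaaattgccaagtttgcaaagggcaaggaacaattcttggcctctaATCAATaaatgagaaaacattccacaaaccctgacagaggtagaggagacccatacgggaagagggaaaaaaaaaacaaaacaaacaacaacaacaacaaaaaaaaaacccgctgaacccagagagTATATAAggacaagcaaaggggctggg
Mup3: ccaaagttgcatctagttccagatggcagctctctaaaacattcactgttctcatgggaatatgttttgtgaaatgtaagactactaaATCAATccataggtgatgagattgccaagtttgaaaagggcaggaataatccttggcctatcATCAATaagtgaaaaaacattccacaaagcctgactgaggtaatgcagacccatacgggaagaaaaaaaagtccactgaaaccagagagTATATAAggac
Mup21: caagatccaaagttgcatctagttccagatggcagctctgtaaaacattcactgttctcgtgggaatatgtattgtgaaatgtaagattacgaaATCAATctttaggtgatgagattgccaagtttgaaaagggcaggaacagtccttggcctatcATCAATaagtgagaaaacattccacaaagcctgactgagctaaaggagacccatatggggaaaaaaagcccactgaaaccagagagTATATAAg
RefSeq promoters were matched for 7 of the 10 genes (Mup2, Mup3, Mup7, Mup11, Mup15, Mup19 and Mup21). In windows of 300 bases, from 250 before to 50 after the start, ATCAAT stood in 7 of these 7, against 7.76% of 27025 promoters. TATATAA stood in 6 of 7, all but Mup7, against 3.46%. The RefSeq start sites are offset between copies, with TATATAA beginning at -27 in Mup2, -11 in Mup3, -8 in Mup21 and -2 in Mup11. The Mup7 start lies soon after its last ATCAAT, which in Mup2 stands far before TATATAA. Mup7 is thus not shown to lack the motif. The STAT motif TTCNNNGAA was found in 0 of 7, against 8.47% of promoters, and TTGCNNAA, bound by CCAAT enhancer binding proteins, in 0 of 7, against 10.8%. Both strands were searched, matches of one motif were allowed to overlap those of another, and TATATAA and ATCAAT were chosen after the sequences had been seen.

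Library totals were 7060780 to 8257370 scaled counts in Tcell low and 7000660 to 7513620 in Tcell high. A scaled count is a read count that the authors had scaled for depth, which left the totals unequal. Tcell low 2, 3 and 4 (7975650, 8046520 and 8257370) lay above every Tcell high library, and Tcell low 1 lay inside the Tcell high range. The library Tcell low 1 stood apart from its group: over all tested genes its mean correlation was 0.861 with the other Tcell low libraries and 0.936 with the Tcell high libraries. Tcell high 1, 3, 5 and 6 form a set that an earlier description of these data found apart from Tcell high 2 and 4. Hepatocyte markers were abundant throughout, with a summed level of 409354 to 585923 scaled counts in Tcell low and 288546 to 550304 in Tcell high over 10 genes such as albumin and transthyretin. In bulk tissue, fewer cells of a type and less RNA per cell cannot be told apart.

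Mup transcripts were lower in Tcell low livers than in Tcell high livers. Of the 10 genes, 8 fell, 0 rose and 2, Mup19 and Mup20, did not pass the test (limma, adjusted p below 0.05 over 11110 tested genes). Among all tested genes 7.39% were called lower and 5.39% higher. At an unadjusted p below 0.05, which 34.5% of all tested genes reached, all 10 Mup genes were lower. In 7 of the 10 every Tcell low library lay below every Tcell high library, against 4.02% of all tested genes (3.37% had every Tcell low library above). The median log2 fold change of the 10 was -3.55, against 0.003 for all tested genes, and 8 of the 10 were at -3 or below, against 0.702% of all tested genes. All 10 genes entered the test, which took genes averaging 10 or more scaled counts across all libraries, and 9 reach that level in both groups, Mup19 being the exception. Mup19 thus entered only through its Tcell high values, and it is counted in the median and among the 8 at -3 or below. Since the near-identical copies may share reads, the 10 rows are not independent of each other, and these counts only describe them.

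**Figure D1:**
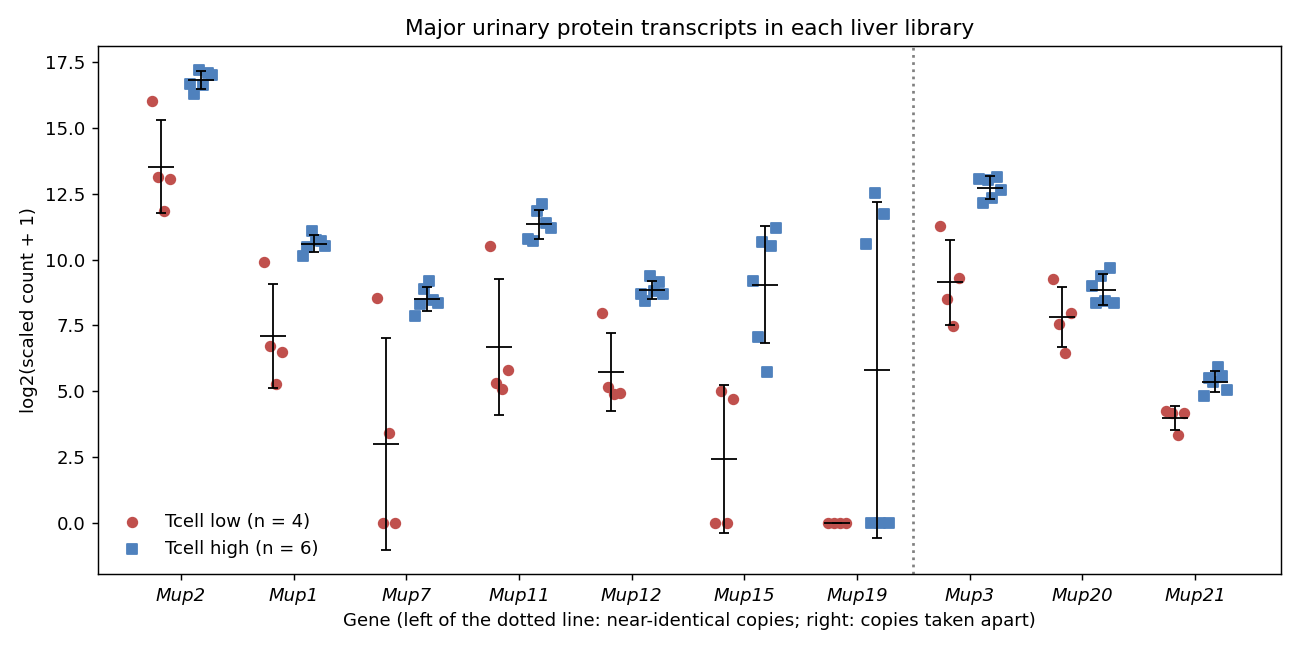
Level of each Mup gene as log2(scaled count + 1) in 4 Tcell low and 6 Tcell high liver libraries, with the mean and SD of the log values as a dash and bars. Tcell low 1 is the highest Tcell low point for every gene other than Mup15 and Mup19, and Mup19 is listed at 0 in all 4 Tcell low libraries.

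Mup2, the row with the most scaled counts in the family, held 66202, 9035, 3704 and 8636 scaled counts in Tcell low 1 to 4, against 105466, 79925, 150813, 102635, 140049 and 133002 in Tcell high 1 to 6. Every Tcell low library lay below every Tcell high library, and Tcell low 1 was the highest of its group by far. The means were 21894 ± 29638 in Tcell low and 118648 ± 26938 in Tcell high (SD, n = 4 and 6), and the log2 fold change was -3.30 (SE 0.59, limma adjusted p = 0.0120). By mean scaled count, not divided by transcript length, Mup2 was 43rd of all 24972 rows in Tcell low and 4th in Tcell high.

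Mup1, a copy close to Mup2, was at 951, 104, 37.5 and 89.4 scaled counts in Tcell low 1 to 4, against 1123, 1421, 2144, 1704, 1655 and 1470 in Tcell high 1 to 6. Its groups did not overlap, and the log2 fold change was -3.51 (SE 0.64, limma adjusted p = 0.0120). Mup11 was at 1464, 38.5, 32.5 and 55.1 in Tcell low, against 1746, 1686, 3681, 4391, 2681 and 2358 in Tcell high. Its Tcell low 1 value came within reach of the lowest Tcell high library while the other 3 were far below, and it fell by 4.66 on the log2 scale (SE 0.84, adjusted p = 0.0120). Without Tcell low 2 both genes had a limma adjusted p of 0.0503.

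Mup12 had 249, 34.8, 28.4 and 29.2 scaled counts in Tcell low, against 408, 345, 664, 448, 569 and 411 in Tcell high. The groups did not overlap and the log2 fold change was -3.13 (SE 0.51, limma adjusted p = 0.00876), the second smallest adjusted p among the 10 genes. Mup7 had 368, 0, 9.70 and 0 in Tcell low, against 228, 318, 466, 580, 354 and 327 in Tcell high. Here Tcell low 1 lay inside the Tcell high range, and the log2 fold change was -5.52 (SE 1.27, adjusted p = 0.0220) on the scale of log2(scaled count + 1), where the 2 libraries listed at 0 make it depend on the added 1. Its call was lost without Tcell low 2, Tcell low 4 or Tcell high 3, with a limma adjusted p of up to 0.0849.

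Mup15 and Mup19 behaved differently from the other near-identical copies within the Tcell high group. Mup15 had 0, 31.1, 0 and 25.2 scaled counts in Tcell low, against 574, 131, 1626, 51.4, 1446 and 2338 in Tcell high, so that its 4 high libraries were Tcell high 1, 3, 5 and 6. Its groups did not overlap, and the log2 fold change was -6.62 (SE 1.25, limma adjusted p = 0.0135). Without Tcell high 1, 3, 5 and 6 it was -3.95 (limma adjusted p = 0.527). Mup1, Mup2 and Mup3 had the same adjusted p there, and 0 of all tested genes were called. Mup19 was listed at 0 in all 4 Tcell low libraries and had 1537, 0, 5851, 0, 3378 and 0 in Tcell high 1 to 6. It did not pass the test (adjusted p = 0.130), and Tcell high libraries 2, 4 and 6 were also listed at 0. Since 100% of the 3′ words of both genes occur in other Mup copies, an exact 0 may be a read given to another copy, and this was not tested.

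The sum over the 7 near-identical copies depends less on how reads were shared among them. It averaged 22781 ± 31067 scaled counts in Tcell low and 126667 ± 30254 in Tcell high (SD, n = 4 and 6). Without Mup2, which holds most of the reads, the other 6 summed to 3032, 208, 108 and 199 in Tcell low 1 to 4, against 5616, 3902, 14432, 7175, 10082 and 6904 in Tcell high 1 to 6, again with no overlap.

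Summed over all 10 genes, the level was 72323, 9811, 4084 and 9740 scaled counts in Tcell low 1 to 4, against 120226, 88688, 174363, 115407, 160107 and 146705 in Tcell high 1 to 6. Every Tcell low library lay below every Tcell high library. The mean sum was 23990 ± 32334 in Tcell low and 134249 ± 31813 in Tcell high, 5.60-fold lower, with Tcell low 1 alone supplying most of the Tcell low mean. These sums came to 1.02%, 0.123%, 0.0508% and 0.118% of the library in Tcell low 1 to 4, against 1.72%, 1.24%, 2.42%, 1.63%, 2.13% and 2.02% in Tcell high 1 to 6. Without Tcell low 1, the difference of the mean log2 sums was -4.16 in place of -3.34.

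**Figure D2:**
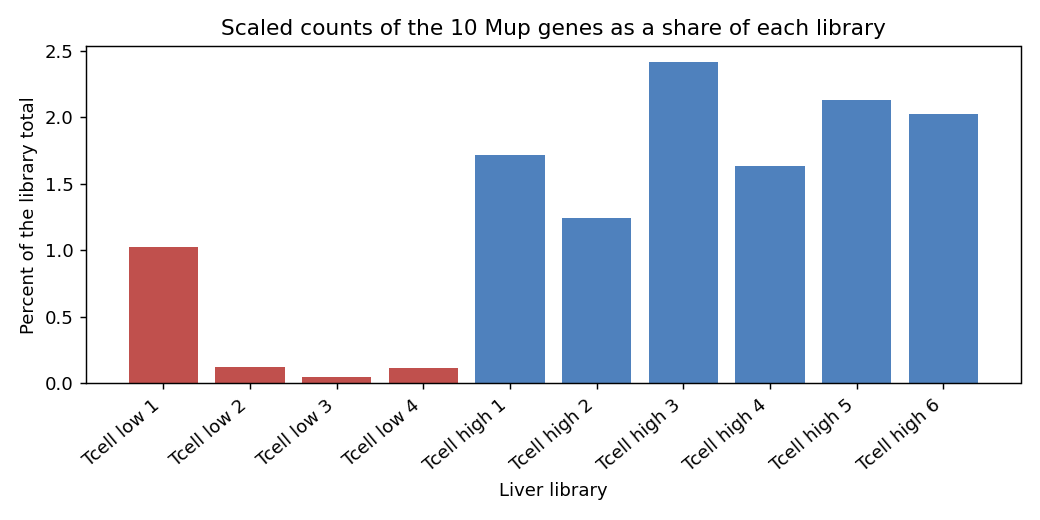
Summed scaled counts of the 10 Mup genes as a percent of each library's total, 1 bar per liver library, with Tcell low in red and Tcell high in blue. Tcell low 2, 3 and 4 lie between 0.0508% and 0.123% and Tcell low 1 at 1.02%, all below the lowest Tcell high library at 1.24%.

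Among the distinct copies, Mup3 had the smallest adjusted p of the 10 genes. It held 2456, 363, 176 and 636 scaled counts in Tcell low 1 to 4, against 8603, 4491, 8421, 5199, 9111 and 6444 in Tcell high 1 to 6. The groups did not overlap, with means of 908 ± 1050 in Tcell low and 7045 ± 1943 in Tcell high (SD, n = 4 and 6). Its log2 fold change was -3.59 (SE 0.54, limma adjusted p = 0.00803), and with 9.36% of its 3′ words in other genes it is one of the 3 rows least open to exchange of reads. Leaving out each library in turn kept Mup3 called lower, with adjusted p up to 0.0309.

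Mup20, the darcin gene, differed less between the groups. It had 613, 189, 87.3 and 251 scaled counts in Tcell low 1 to 4, against 512, 325, 658, 339, 818 and 324 in Tcell high 1 to 6. Tcell low 1 lay inside the Tcell high range and the other 3 Tcell low libraries lay below it. The means were 285 ± 229 in Tcell low and 496 ± 207 in Tcell high, and the log2 fold change of -1.04 (SE 0.45, limma adjusted p = 0.123) did not pass. Without Tcell low 1 it passed, at -1.52 with an adjusted p of 0.00989.

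Mup21, the copy with the lowest scaled counts of the 10, had 18.2, 16.9, 9.01 and 17.2 in Tcell low 1 to 4, against 27.3, 44.6, 39.3, 58.7, 47.3 and 31.8 in Tcell high 1 to 6. The groups did not overlap, and Tcell low 1 did not stand out from its group here. The log2 fold change was -1.38 (SE 0.32, limma adjusted p = 0.0236). The call was lost without Tcell low 2, 3 or 4 or Tcell high 3 or 5, with an adjusted p of up to 0.0683.

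Ratios between the distinct copies within a library hardly depend on the scaling. The log2 ratio of Mup3 over Mup20 was 2.00, 0.94, 1.00 and 1.34 in Tcell low 1 to 4, against 4.07, 3.78, 3.68, 3.93, 3.48 and 4.31 in Tcell high 1 to 6. All Tcell low ratios, Tcell low 1 included, lay below all Tcell high ratios, and the means differed by -2.56 (exact two-sided permutation test, p = 0.00952, adjusted p = 0.0286 over 3 pairs). The p of 0.00952 is the smallest that 4 against 6 libraries can give in such a test.

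The log2 ratio of Mup3 over Mup21 was 7.001, 4.35, 4.14 and 5.13 in Tcell low, against 8.25, 6.62, 7.71, 6.45, 7.56 and 7.62 in Tcell high. Only Tcell low 1 reached into the Tcell high range, and the means differed by -2.21 (exact two-sided permutation test, p = 0.0286, adjusted p = 0.0429). For Mup20 over Mup21 the log2 ratios were 5.00, 3.40, 3.14 and 3.79 in Tcell low, against 4.18, 2.84, 4.03, 2.51, 4.08 and 3.31 in Tcell high. These overlapped, with a difference of 0.34 (exact permutation p = 0.495, adjusted p = 0.495), which does not show that the 2 copies changed alike. The difference between groups was thus larger for Mup3 than for Mup20 or Mup21. Without Tcell low 2, 3 or 4 the adjusted p for Mup3 over Mup20 was 0.0714 in the exact test, where all ratios of the groups were still apart, and that for Mup3 over Mup21 ran from 0.0357 to 0.107 over the 10 libraries left out in turn.

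**Figure D3:**
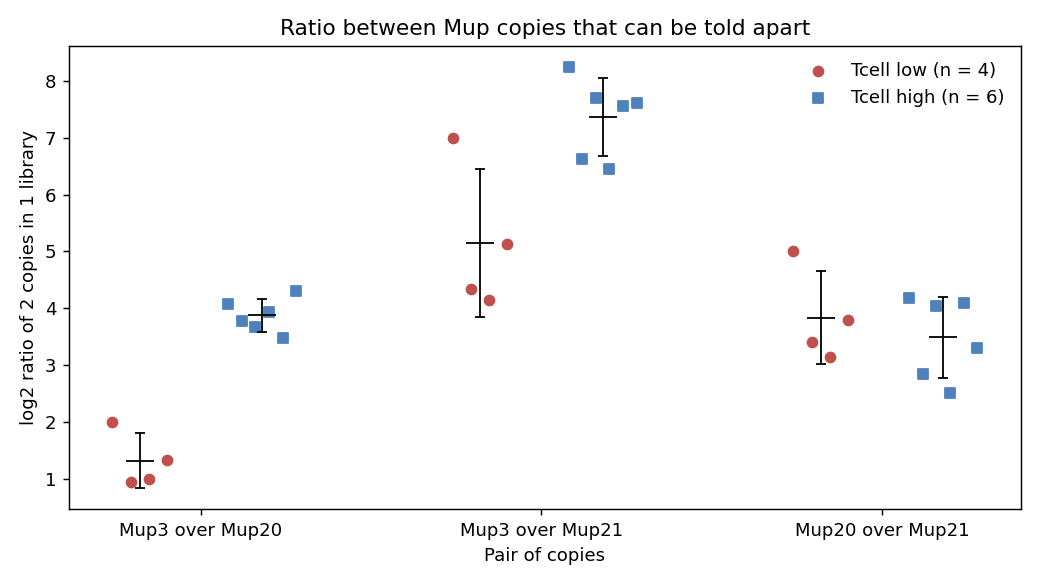
Log2 ratio of scaled counts (each plus 1) between pairs of distinct Mup copies within each of 4 Tcell low and 6 Tcell high libraries, with the mean and SD as a dash and bars. For Mup3 over Mup20 the Tcell low libraries lie between 0.94 and 2.00 and the Tcell high libraries between 3.48 and 4.31, while for Mup20 over Mup21 the groups overlap.

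The makeup of the pooled Mup reads is described by the share of each row. Mup2 made up 88.7% to 92.1% of the scaled counts of the 10 genes in Tcell low and 86.5% to 90.7% in Tcell high, and Mup3 3.40% to 6.53% in Tcell low and 4.39% to 7.16% in Tcell high. Mup20 made up 0.848%, 1.92%, 2.14% and 2.58% in Tcell low 1 to 4, against 0.221% to 0.511% in Tcell high. Its share was thus above the Tcell high range in every Tcell low library. Because Mup2 makes up most of the sum, this share is close to a ratio of Mup20 to Mup2, whose value as a single gene is uncertain. It uses the same Mup20 values as the ratio to Mup3 and is not independent of it.

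The table holds 11 more Mup rows, of which 5 were tested. Mup10 (831, 48.1, 34.1 and 147 scaled counts in Tcell low, against 959 to 1564 in Tcell high) fell, with a log2 fold change of -3.29 (SE 0.66, limma adjusted p = 0.0166). Mup9 fell by 3.44 (adjusted p = 0.0251) and Mup18 by 2.08 (adjusted p = 0.0215) on the log2 scale. Mup13 had 1686, 123, 55.8 and 176 scaled counts in Tcell low, against 3327, 2409, 1844, 529, 0 and 0 in Tcell high, with both zeros in the Tcell high group, and did not pass (log2 fold change 0.60). Its sign turned with the pseudocount and without Tcell low 1, Tcell high 5 or Tcell high 6. Without Tcell low 2 the calls of Mup9, Mup10 and Mup18 were lost (limma adjusted p = 0.0795, 0.0671 and 0.0791). They were also lost without Tcell low 4, and those of Mup9 and Mup18 without several other single libraries. Mup14 (0, 73.2, 0 and 38.3 in Tcell low, against 0 in Tcell high 1 to 5 and 8.38 in Tcell high 6) did not pass either (adjusted p = 0.249). Mup4, Mup5, Mup6 and Mup8 were below the filter, and Mup16 and Mup17 were listed at 0 in every library.

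Genes beside the cluster were compared because they share its position but not its sequence. The nearest tested coding genes before it, Snx30, Inip and E130308A19Rik, had log2 fold changes of -0.17, -0.35 and -0.57, and none passed. After it, Slc31a2 (-1.41, limma adjusted p = 0.0921) and Fkbp15 (0.33) did not pass. Slc31a1, a copper importer 209.9 kb from the cluster, was the 1 flanking gene of 6 that fell, with 477 ± 337 scaled counts in Tcell low and 990 ± 56.0 in Tcell high (log2 fold change -1.32, SE 0.35, adjusted p = 0.0329). Its call was lost without any 1 of 7 libraries, with an adjusted p of up to 0.113.

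**Figure D4:**
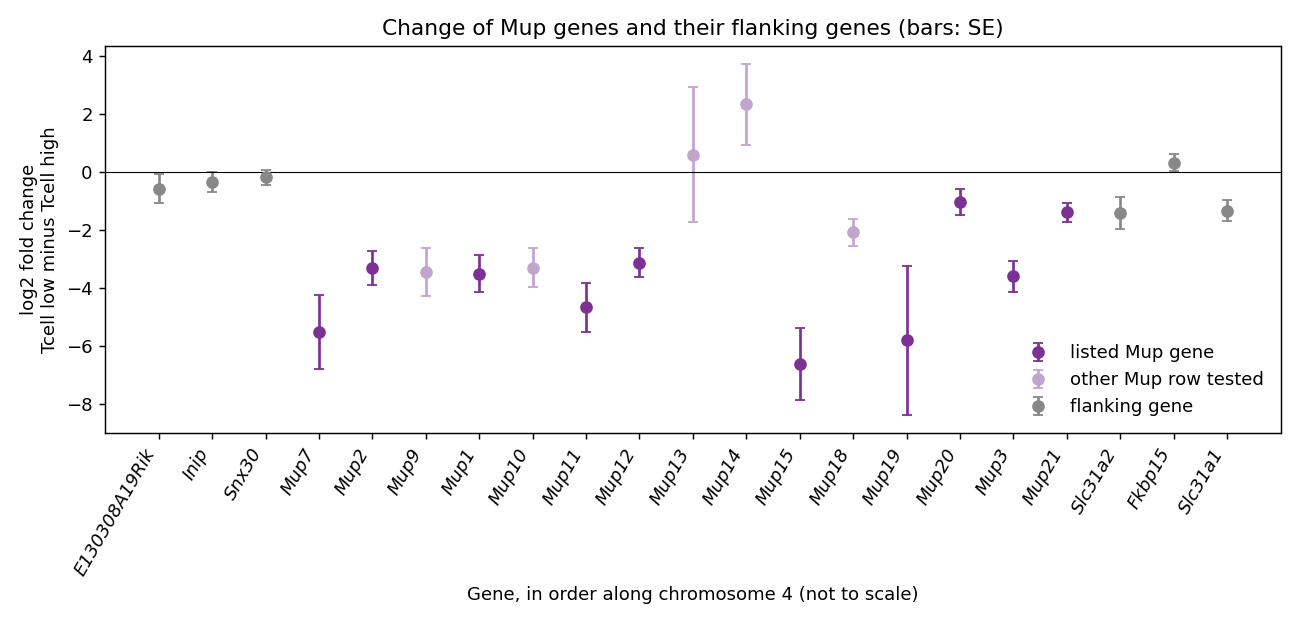
Log2 fold change, Tcell low minus Tcell high, of the listed Mup genes, the other tested Mup rows and 3 flanking coding genes on each side, in their order along chromosome 4 and not to scale, with SE as bars. The listed genes lie between -6.62 and -1.04, Mup13 and Mup14 lie above 0 with wide bars, and the flanking genes lie between -1.41 and 0.33.

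Growth hormone signalling, the known driver of Mup transcription, was read from 12 genes, of which 11 were tested: 1 rose, 2 fell and 8 did not pass, with a median log2 fold change of 0.09 against 0.003 for all tested genes. Across all tested genes 12.8% were called in either direction, the share to set beside this list and those below. Socs2, a STAT5-induced inhibitor of growth hormone signalling, rose, at 205, 2508, 1119 and 1601 scaled counts in Tcell low 1 to 4, against 128 to 370 in Tcell high (log2 fold change 2.37, SE 0.56, limma adjusted p = 0.0236). Tcell low 1 lay inside the Tcell high range for Socs2, as it did for Mup7 and Mup20. Igfals, which carries IGF1 in serum, fell, at 609 ± 255 in Tcell low and 1189 ± 261 in Tcell high (-1.04, adjusted p = 0.0320). Stat5a fell too, at 10.9 ± 8.76 in Tcell low and 46.2 ± 16.1 in Tcell high (-2.57, adjusted p = 0.0365). The receptor gene Ghr had 356 to 1412 scaled counts in Tcell low and 1152 to 2153 in Tcell high and did not pass (-1.15, adjusted p = 0.0505). Stat5b, the transducer named above, had 183 to 420 in Tcell low and 188 to 236 in Tcell high (0.38, adjusted p = 0.245), and the log2 fold changes of Jak2 and of Igf1, a growth hormone target, were 0.09 and 0.11. The calls of Socs2, Igfals and Stat5a were lost without Tcell low 2 (limma adjusted p = 0.0897, 0.113 and 0.0668). Each was also lost without Tcell low 4 (limma adjusted p = 0.0789, 0.100 and 0.0780) and without several other single libraries.

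Liver transcription factors known to act on hepatocyte genes were mostly not called: of 20 tested, 2 rose and 18 did not pass, with a median log2 fold change of -0.02. That is close to the 12.8% called in either direction among all tested genes. Onecut1, a cut homeodomain factor, rose, at 158, 245, 237 and 345 scaled counts in Tcell low, against 54.8 to 124 in Tcell high (log2 fold change 1.41, SE 0.29, limma adjusted p = 0.0169), though 56.6% of its 3′ words occur in another gene and its value is uncertain. Foxa3, a forkhead factor of hepatocytes, rose with overlap, at 2768 ± 1684 in Tcell low and 910 ± 332 in Tcell high (1.42, adjusted p = 0.0449). Zhx2, a repressor of several fetal and sex-biased liver genes, had 29.1 to 46.1 scaled counts in Tcell low and 37.8 to 48.9 in Tcell high and did not pass (adjusted p = 0.640). Without Tcell low 2 the limma adjusted p was 0.0615 for Onecut1 and 0.154 for Foxa3. Without Tcell low 4 it was 0.0653 and 0.120, and the Foxa3 call was also lost without several other single libraries.

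Other lipocalins did not follow the Mup genes. Of 12, 8 were tested: 4 rose, 1 fell and 3 did not pass, with a median log2 fold change of 0.69. The orosomucoids Orm1, Orm2 and Orm3 and Lcn2, acute phase lipocalins, rose by 0.87, 2.46, 1.61 and 2.24 on the log2 scale (limma adjusted p = 0.0481, 0.0286, 0.0175 and 0.0367), with shared 3′ words of 41.9% for Orm1 and 46.7% for Orm2. C8g, the lipocalin chain of complement component C8, fell, at 1992 ± 926 in Tcell low and 4623 ± 386 in Tcell high (-1.34, adjusted p = 0.0170). All 5 calls were lost without Tcell low 2, with limma adjusted p-values of 0.0669 to 0.0909. Those of the orosomucoids and Lcn2 were also lost without Tcell low 4 (limma adjusted p = 0.0548 to 0.112). Those of Orm1, Orm2 and Lcn2 were lost without several other single libraries as well.

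Of 18 abundant secreted plasma proteins, all tested, 3 rose and 15 did not pass, with a median log2 fold change of 0.22, where 12.8% of all tested genes were called in either direction. Serpina1e, an alpha-1 antitrypsin copy, rose, at 7157, 29912, 29550 and 56451 scaled counts in Tcell low 1 to 4, against 957 to 2906 in Tcell high (log2 fold change 3.90, SE 0.48, limma adjusted p = 0.00331). Apoa1, the main protein of high density lipoprotein, rose by 1.08, and Hp, haptoglobin, by 1.20 (adjusted p = 0.0208 and 0.0224), both calls being lost without Tcell low 2 (limma adjusted p = 0.0802 and 0.0712). Both were also lost without Tcell low 3, Tcell low 4 or Tcell high 1, and that of Hp without Tcell high 3 or 5. Albumin (Alb) and transthyretin (Ttr) had log2 fold changes of -0.01 and -0.04 and did not pass.

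Sex-biased liver genes, which share growth hormone control with the Mup genes, were counted in both directions. Of 15 male-biased genes 9 were tested: 4 fell, 2 rose and 3 did not pass, with a median log2 fold change of -1.45. Those that fell were Selenbp2 (-3.31), Cyp7b1 (-3.17), Nudt7 (-4.01) and Elovl3 (-3.60), with limma adjusted p-values from 0.00885 to 0.0192, and those that rose were Serpina1e and Cyp2d9 (1.46, adjusted p = 0.0448), the Cyp2d9 and Selenbp2 rows sharing 26.9% and 45.1% of their 3′ words with other genes. Of 15 female-biased genes 14 were tested: 9 fell and 5 did not pass, with a median of -2.37. Among those that fell, the shares of 3′ words in other genes were 100% for Cyp3a41a, 61.3% for Cyp2c40 and 39.9% for Cyp2c69. They were 33.3% for Cyp2a4 and 19.7% for Cyp3a44, while Cyp2b9, Cyp2b13, A1bg and Acot3 shared none. Cyp2b9, a female-biased cytochrome P450 with no shared 3′ words, was at 619, 161, 190 and 104 scaled counts in Tcell low, against 1022 to 1284 in Tcell high (-2.40, SE 0.37, adjusted p = 0.00836). Cyp3a44 fell to 13.0 ± 12.8 in Tcell low, against 156 ± 46.1 in Tcell high (-4.15, adjusted p = 0.00805). Without Tcell low 2 the limma adjusted p was 0.0510 to 0.0749 for Cyp7b1, Nudt7 and Elovl3 and 0.149 for Cyp2d9. The Nudt7 and Elovl3 calls were also lost without Tcell low 4, and that of Cyp2d9 without several other single libraries. Xist, the transcript that silences an X chromosome in female cells, had 1421 to 2097 scaled counts in Tcell low and 866 to 1550 in Tcell high, and the Y-linked Ddx3y, Kdm5d, Eif2s3y and Uty were listed at 0 in every library.

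**Figure D5:**
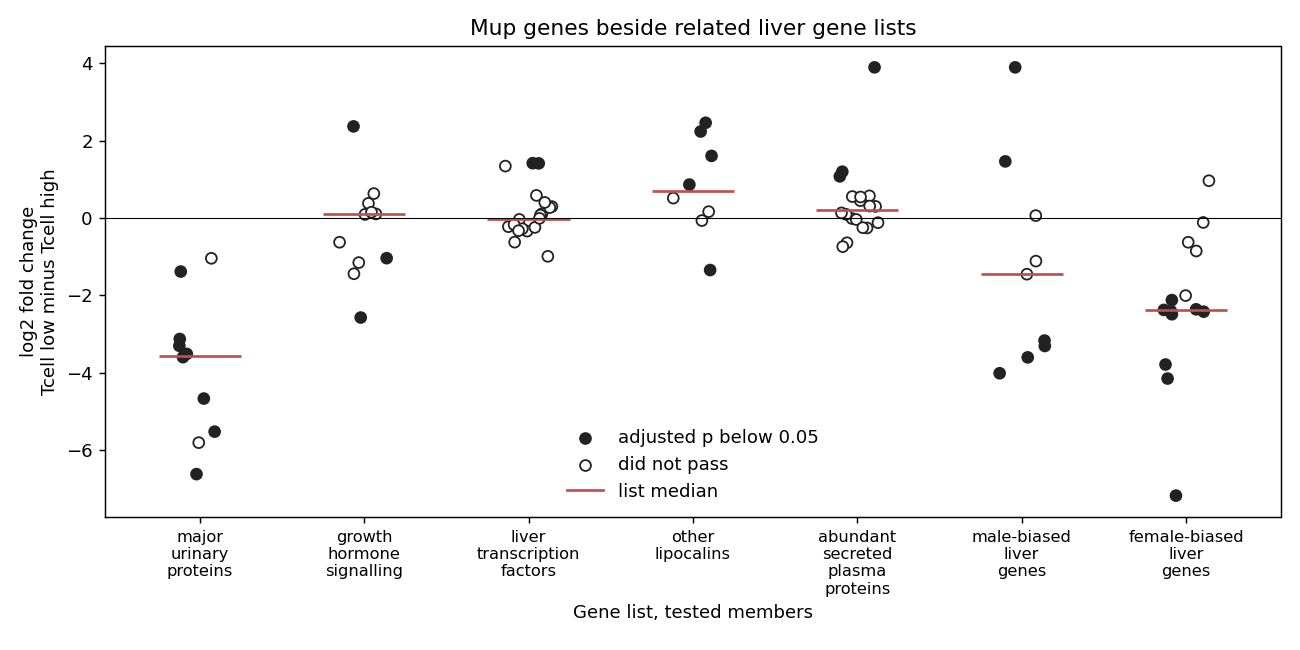
Log2 fold change, Tcell low minus Tcell high, of each tested gene of the Mup family and of 6 related lists, filled where the limma adjusted p was below 0.05, with the list median as a red line. The Mup median of -3.55 is the lowest, the female-biased median is -2.37 and the male-biased median -1.45, and the other 4 medians lie between -0.02 and 0.69.

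The 6 tested genes outside the family whose log2 levels ran most like the mean of Mup3, Mup20 and Mup21 over the 10 libraries were Ces3a, Aldh3a2, Ess2, Mmp15, 4930481A15Rik and Ormdl2, with Pearson r from 0.959 to 0.950. Within the 6 Tcell high libraries alone their r was 0.403 to 0.708. The r within Tcell low was not computed, and in all 6 genes Tcell low 1 was the highest of its group. How much of the likeness lies between the groups was not tested. Aldh3a2, a fatty aldehyde dehydrogenase, was at 276, 71.8, 68.7 and 95.6 scaled counts in Tcell low 1 to 4, against 413 to 706 in Tcell high, with Tcell low 1 again the highest of its group (log2 fold change -2.23, limma adjusted p = 0.00835). Among the Mup genes, the r with this mean, which contains 3 of them, was 0.975 for Mup3, 0.966 for Mup2 and 0.963 for Mup1, and 0.717 for Mup15 and 0.584 for Mup19.

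Some other measures moved with the same contrast. Neutrophil markers summed to 654 to 1768 scaled counts in Tcell low and 45.0 to 219 in Tcell high over 10 genes, of which 4 were tested and all 4 rose, S100a8 and S100a9 among them, and 0 of the 10 were at 0 throughout. Erythroid markers summed to 43163 to 98228 in Tcell low and 19681 to 51936 in Tcell high, with overlap (6 tested: 2 rose, 4 did not pass). Most of that sum was Hba-a2, with 83.2% of its 3′ words in another gene. Hbb-bs, with 56.7% shared words, went the other way, at 167 ± 49.5 in Tcell low and 4230 ± 3784 in Tcell high. It did not pass (limma adjusted p = 0.208). Of the 10 hepatocyte markers 2 rose (Apoa1 and Apob), 1 fell and 7 did not pass. The 1 that fell was Fabp1, the liver fatty acid binding protein, at 1138 ± 1964 in Tcell low and 11113 ± 4617 in Tcell high (log2 fold change -5.16, limma adjusted p = 0.0122). Immediate early genes, which respond quickly to stress and handling, summed to 2229 to 13649 in Tcell low and 1372 to 3784 in Tcell high, with 5 of 15 risen (Btg2, Klf4, Klf6, Ier3 and Myc). These 5 calls were lost without Tcell low 2 (limma adjusted p = 0.0615 to 0.149). All but that of Btg2 were also lost without Tcell low 4, that of Ier3 without Tcell low 3, and that of Myc without several other single libraries. Summed markers overlapped between the groups for Kupffer cells (6667 to 10661 in Tcell low, 3601 to 13199 in Tcell high), sinusoidal endothelium (2248 to 2649 and 2049 to 2911), stellate cells (3189 to 5016 and 2451 to 3557) and cholangiocytes (157 to 447 and 108 to 235), given in the same order of groups. They also overlapped for T or NK cells (9.74 to 50.9 in Tcell low, 17.3 to 42.5 in Tcell high), B cells (up to 87.8 and up to 39.5) and pancreatic ductal tumour (1296 to 2269 and 1258 to 1987). Within these lists, 2 of 8 tested endothelial markers rose, Stab2 and Lyve1 (limma adjusted p = 0.0432 and 0.0262). Of 3 tested tumour markers 1 rose, Msln, at 108 ± 57.4 in Tcell low and 22.1 ± 8.59 in Tcell high (limma adjusted p = 0.0220). All 3 overlapped between the groups, and 0 markers of the other overlapping lists were called. The part of these shifts in the Mup values was not tested.

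Which libraries entered decided how many Mup genes passed. With a term for Tcell high 1, 3, 5 and 6, 0 of the 10 were called and Mup3 had a log2 fold change of -3.10 (SE 0.72, limma adjusted p = 0.156), as 0 of all tested genes were called, while 8 of the 10 had an unadjusted p below 0.05, as did 1788 of all tested genes. Without these 4 libraries the log2 fold changes of the 9 genes other than Mup19 lay between -5.76 for Mup7 and -0.56 for Mup20, and 0 of the 10 passed. Without Tcell low 1, 9 of the 10 were called lower, with 3633 of all tested genes called in either direction. Without Tcell low 2, 4 of the 10 were called lower, with 109 of all tested genes called, against 1420 with every library in.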

How the data were processed

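Gene counts from 3′ end libraries (QuantSeq FWD, total liver RNA, per the labels' protocols) had been scaled by the authors for depth, which left library totals unequal. The deposited signal per gene and library is called a scaled count here. Values are not whole numbers, so count models and counting intervals were not used, and the limma test named in the design for scaled values was applied. STAR, DESeq2 and the build mm10 are named, per the submitters' processing notes, with no versions. For the read counter and the annotation, the entry is: not given in the sources used here. All 10 table columns were matched to samples by their labels.

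Genes with a mean of at least 10 over the 10 libraries (11110 of 24972) were tested on log2(scaled count + 1) with limma 3.58.1 in R 4.3.3 (moderated test, variance trend on the mean, group as the only term, two-sided, Benjamini-Hochberg over all tested genes, called below 0.05). Its median degrees of freedom were 13.12. Log2 fold changes are Tcell low minus Tcell high and understate the change of low genes. The same code was tested on simulated data. Ratios between the distinct copies were compared with an exact two-sided permutation test (scipy 1.17.1), adjusted over 3 pairs.

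Positions, coding sequences and 3′ words are from GENCODE vM21 on GRCm38, the assembly named mm10, and promoters from a RefSeq table of GRCm38.p6. Sequences were read with Biopython 1.88 in Python 3.11.15, and figures drawn with matplotlib 3.10.9.

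The Mup genes and every gene list were chosen with earlier results of these data known. Outside the family, the genes named are up to 6 called members of each list by lowest adjusted p, 3 flanking genes on each side, and the 6 genes most like the distinct copies by Pearson r. Single cell type markers, and genes named because they did not pass (Ghr, Stat5b, Jak2, Igf1, Zhx2, Alb and Ttr), were picked after their values were seen. Alternatives covered the pseudocount, filter, scaling, robust option, library weights, threshold, a replicate block, a covariate for 4 Tcell high libraries and each library left out. Leaving out those 4 libraries together was chosen after seeing the data.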

Additional observations from a re-analysis of the deposited data

Results flagged for a closer look

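Each value below was the highest or lowest of the 4 Tcell low libraries and lay far from the nearest of the others. The criterion is one that chance meets in about 1 in 20 groups of normally distributed values. Levels, sums and shares were screened without taking logs, where that rate need not hold and a high library stands out more. Of 46 groups of values screened, 11 met the criterion.

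In 10 of the 11 the library was Tcell low 1, as the highest. For single genes these were Mup2 at 66202 scaled counts, Mup11 at 1464, Mup1 at 951, Mup7 at 368 and Mup12 at 249. For sums they were 72323 scaled counts over the 10 Mup genes, 75419 over all Mup rows, 69235 over the 7 near-identical copies and 3032 over the 6 of them other than Mup2. The share of the 10 genes in the library total, 1.02%, was the tenth. These values share their reads and are not independent of each other.

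The remaining one was Mup21 in Tcell low 3, the lowest at 9.01 scaled counts, with 16.9 in the nearest Tcell low library. No cause was tested for either.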

How the results depend on the processing

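All 10 Mup genes kept a lower level in Tcell low under the alternatives run, except Mup19 with the covariate for Tcell high 1, 3, 5 and 6, where its log2 fold change was 0. Mup21 was not tested with the filter at 50, nor Mup19 without Tcell high 1, 3, 5 and 6. Mup genes called lower numbered 8. They numbered 2 at a threshold of 0.01, and 0 with that covariate or without Tcell high 1, 3, 5 and 6 together, where 8 of the 10 had an unadjusted p below 0.05 each time. They ran from 4 (without Tcell low 2) to 9 (without Tcell low 1) with 1 library left out, and numbered 10 with library weights. Genes called numbered 1420. They numbered 3266 with library weights, 54 at a threshold of 0.01, 0 with the covariate and 0 without the 4 libraries (limma; 1788 and 1027 at an unadjusted p below 0.05), and 109 to 3633 with 1 library left out. List genes called numbered 27, against 10 at a threshold of 0.01, 0 with the covariate, 0 without the 4 libraries and 11 to 40 with 1 library left out.

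The replicate numbers gave no sign of pairing the samples. Deviations of same-numbered libraries correlated at 0.104, 0.211, -0.0988 and -0.151, and those of different-numbered libraries from -0.241 to 0.289. So few correlations cannot exclude a pairing. With a replicate block 193 genes, 16 list genes and 2 Mup genes were called (Mup3, limma adjusted p = 0.0350, and Mup12, 0.0407).

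With 1 library left out, the difference in log2 ratio ran from -2.78 to -2.43 for Mup3 over Mup20, from -2.83 to -1.87 for Mup3 over Mup21 and from -0.046 to 0.57 for Mup20 over Mup21, the last turning sign at -0.046 without Tcell low 1. The summed log2 difference ran from -4.16 to -2.78, against -3.34 with all libraries. Mup13 turned from 0.60 to -0.41 with a pseudocount of 10, -0.48 with library weights, -2.97 with the block, -2.40 with the covariate and without the 4 libraries, and ran from -0.82 to 1.52 with 1 library left out. The cause was not tested in any of these. Rescaling to equal totals without Mup rows moved the median of all genes to -0.14 and the summed difference to -3.48, a shift of about the same size in both. With words of 75 bases, 7 of the 10 genes share their 3′ end, against 8 with 50. Read depth before scaling is unknown, so a listed 0 sets no limit on a gene's level.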
